A study of Mus musculus with 7 samples.

Results

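The receptors that T cells use for common gamma-chain cytokines and for interleukin 6 were followed through RNA-seq of CD4+ splenocytes, as 9 genes taken by symbol from a table of 19589 genes. They are Il2ra, Il2rb, Il2rg, Il4ra, Il7r, Il21r, Il15ra, Il6ra and Il6st, and all 9 were in the table. The cells were sorted by flow cytometry from the spleens of C57BL/6 mice. The RT group was 3 mice with the genotype label RT (RT1 to RT3), which the series describes as Tet2-/-G17VRHOA, that is, without Tet2, a DNA 5-methylcytosine dioxygenase, and with the G17V form of the small GTPase RHOA, known from angioimmunoblastic T cell lymphoma. The wild-type group was 4 samples (WT1 to WT4), which the series counts as 4 mice, with no engineered allele in its labels. Nothing in the files shows that WT3 and WT4 are separate mice, so n = 4 follows the labels, and p-values measure the spread between these samples. The labels give no age, treatment or promoter driving the RHOA allele, and name no sorting of the CD4+ cells into subsets.

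Interleukins 2, 4, 7, 9, 15 and 21 share the gamma chain, encoded by Il2rg, which binds the kinase JAK3, paired with a further chain that binds JAK1. Interleukin 6 binds its receptor chain, encoded by Il6ra, and the pair then engages gp130, encoded by Il6st, which signals through JAK1 and STAT3. In CD4+ cells, interleukins 2 and 7 act mainly through STAT5, interleukin 4 through STAT6, and interleukins 6 and 21 through STAT3. Interleukin 7 sustains resting T cells, interleukin 2 sustains regulatory T cells, and interleukins 6 and 21 promote follicular helper T cells, which help B cells in germinal centres.

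Sequencing depth split the 7 libraries into 2 sets, each with both genotypes. RPKM, the deposited unit, is a read count divided by gene length and by the library's read total. The totals, recovered from the steps of the values, were 21800352 in RT1, against 18566233 and 20033254 in WT1 and WT2, and these 3 are called deep. The 4 shallow libraries had 105763 and 121659 in RT2 and RT3, against 118950 and 121617 in WT3 and WT4. In a gene of 2 kb, 1 read gave 0.0229 to 0.0269 RPKM in the deep libraries and 4.11 to 4.73 RPKM in the shallow ones. Tet2 rested on 1292, 1 and 0 reads in RT1 to RT3 and on 1381, 1105, 4 and 4 reads in WT1 to WT4, so in the library labelled RT1 it lay within the deep wild-type range. A whole-gene value is no check of the label where the deleted exons are unknown. The 6 CD4 T cell markers (Cd3d, Cd3e, Cd3g, Cd4, Cd5 and Cd28) were present in every library, with sums of 2724 to 5709 RPM (reads of each 1000000 recovered) in RT and 2928 to 3412 RPM in WT. Read from Xist and Y-linked genes, RT3, WT3 and WT4 were male and the other 4 female, so in the wild type sex and library set cannot be told apart.

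In the deep libraries of both genotypes, the deposited RPKM was highest for Il2rb, Il2rg and Il7r and lowest for Il2ra and Il15ra. The order at the top may depend on the gene lengths behind Il2rb and Il7r, which are shorter in the deep than in the shallow libraries. With the same deep reads divided by the shallow length, Il2rb comes to 56.6 RPKM in RT1, against 52.0 and 36.8 RPKM in WT1 and WT2. Il7r so treated comes to 26.4 RPKM in RT1, against 42.4 and 43.3 RPKM in WT1 and WT2. These values are too low if reads in the added bases were not counted, so the place of Il7r against Il21r and Il6st in RT1 is not settled. The values that follow are as deposited. In RT1, Il2rb stood at 87.2 RPKM, Il2rg at 47.0, Il7r at 38.4, Il21r at 27.3, Il6st at 27.0, Il6ra at 21.3 and Il4ra at 11.7 RPKM. Il15ra at 2.71 RPKM and Il2ra at 2.53 RPKM were side by side at its low end. In WT1 and WT2, Il2rb stood at 80.0 and 56.7 RPKM, Il2rg at 58.1 and 74.1 RPKM and Il7r at 61.7 and 63.0 RPKM, ranges that overlap. Il21r followed at 32.6 and 33.5 RPKM, above Il4ra at 22.3 and 32.5 RPKM, Il6ra at 23.4 and 29.6 RPKM and Il6st at 27.8 and 25.0 RPKM, and these last 3 overlap. In these WT libraries Il2ra, at 9.10 and 9.81 RPKM, was clear of Il15ra, at 2.16 and 2.0 RPKM, and Il4ra was beside the chains of the interleukin 6 receptor rather than below them as in RT1.

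**Figure D1:**
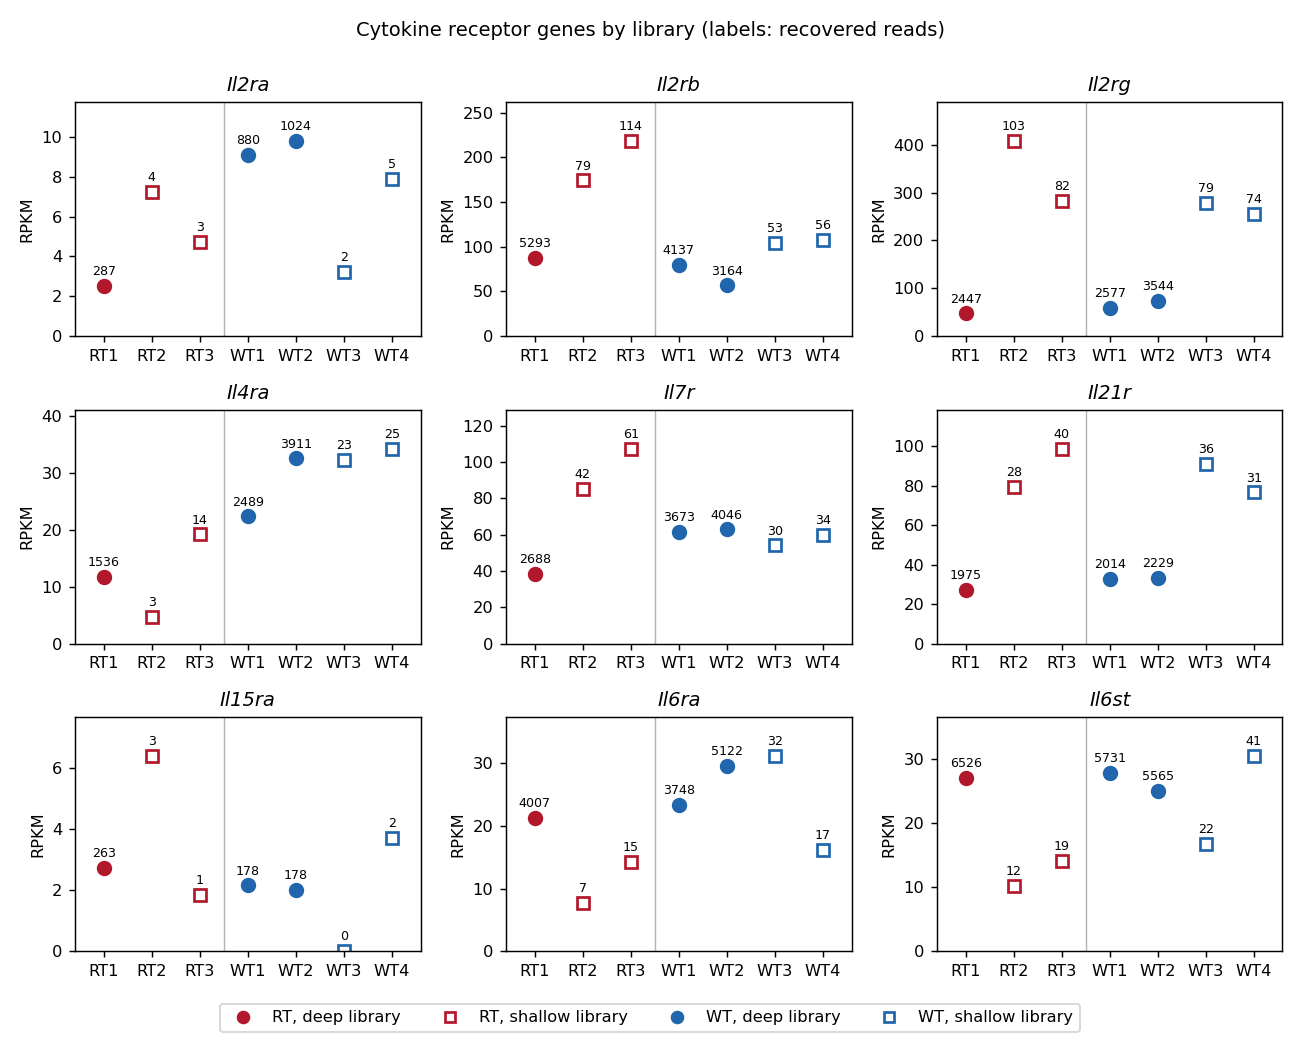
Each panel plots 1 receptor gene, with RPKM on the y axis (from 0) and the 7 libraries on the x axis, RT1 to RT3 on the left and WT1 to WT4 on the right. Filled circles are deep libraries, open squares are shallow ones, and the number at each point is the reads behind it. Il4ra is the 1 gene of the 9 whose RT values, 4.73 to 19.2 RPKM, all lie under its WT values, 22.3 to 34.2 RPKM.

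Comparing RT with wild type asks whether CD4+ cells of the 2 genotypes carry different amounts of each receptor's RNA. Il4ra, the interleukin 4 receptor chain, and Il2ra, the high-affinity chain of the interleukin 2 receptor, were the members called lower in RT. Both calls come from the test on the whole reads behind the RPKM values. Il4ra was lower in both library sets. The Il2ra call rests on the deep set, where 1 RT library gives no spread between RT mice. The shallow libraries hold too few Il2ra reads to show a difference. In the test on log2(RPKM + 1) with limma, 0 of 9 members passed an adjusted p of 0.05, higher or lower, and 1 of 9, Il4ra, had an unadjusted p under 0.05. Over all 9605 genes in that test 0.0416% passed as higher and 0.0104% as lower, and at an unadjusted p under 0.05 there were 435 and 400. In the test on reads (limma voom with a term for the library set), 0 of 8 members passed as higher and 2 of 8 as lower. The same test called 9.21% of 5908 genes higher and 7.94% lower, with a median log2 fold change of -0.03 over all genes and -0.32 over the 8 members. Il15ra had too few reads for it. Fewer cells of a type and less RNA per cell cannot be told apart in these bulk samples.

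With RT1 left out, which is the 1 deep RT library, the test on reads called 0 of 5908 genes, and 163 higher and 310 lower ones had an unadjusted p under 0.05, so no member was called in that fit. The deep libraries alone (1 RT, assumed to vary like the 2 WT) called 0 of 8 members, against 1.69% of all genes higher and 0.711% lower. The shallow libraries alone called 1 of 8 members higher, Il2rb, and 1 of 8 lower, Il4ra, against 2.56% of all genes higher and 3.42% lower. With WT3 and WT4 summed as 1 sample, Il4ra was at -1.26 and Il2ra at -1.86 on reads (limma voom adjusted p = 0.0216 and 0.00534).

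**Figure D2:**
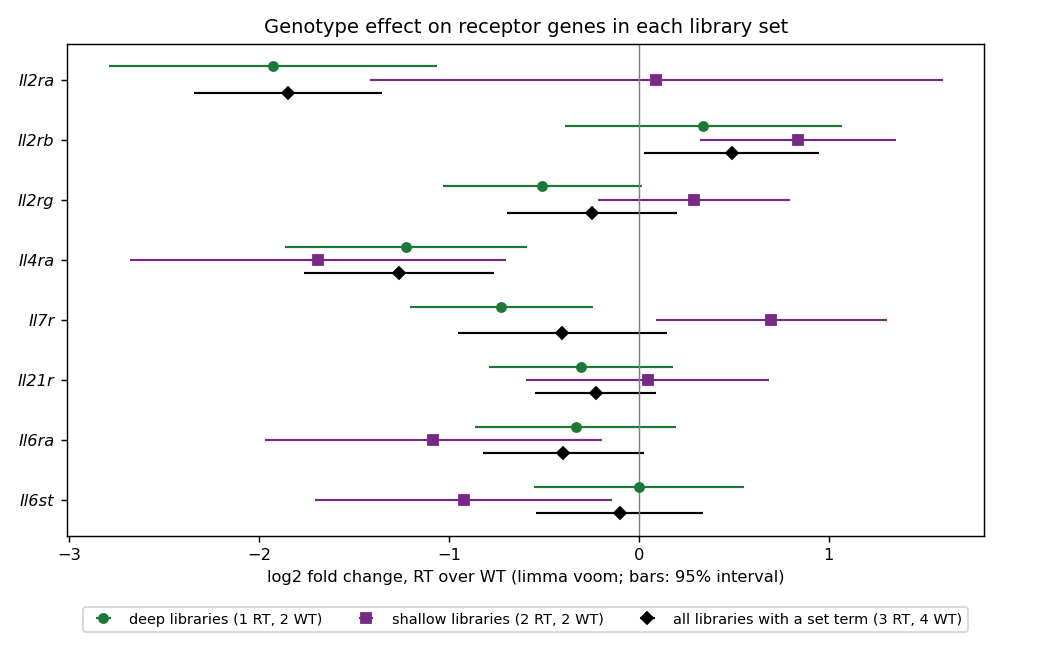
The x axis is the log2 fold change of RT over WT from limma voom on recovered reads, with bars for the 95% interval, and the y axis lists 8 receptor genes. Circles are the deep libraries (1 RT, 2 WT), squares the shallow libraries (2 RT, 2 WT) and diamonds all 7 with a term for the set. Il4ra lies left of 0 in all 3 fits, as does Il6ra. Il2ra, Il2rg, Il7r, Il21r and Il6st lie on opposite sides of 0 in the deep and shallow sets, Il2ra with a shallow interval from -1.42 to 1.60.

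Il4ra (chromosome 7, 125552120 to 125579474, plus strand, mm10) encodes the chain that binds interleukin 4 and, with the gamma chain, forms the type I interleukin 4 receptor. Il21r (chromosome 7, 125603429 to 125633570, plus strand) lies 23954 bases downstream and encodes the chain that binds interleukin 21. Il2ra (chromosome 2, 11642807 to 11693193, plus strand) has Il15ra, the interleukin 15 chain, as its neighbour 12096 bases downstream (chromosome 2, 11705290 to 11734317, plus strand). The upstream sequences of both members that fell and of Il21r, the neighbour of Il4ra that did not pass, come from RefSeq (GRCm38.p6), on the plus strand and outside annotated exons. They cover chr7:125552021-125552119 for Il4ra, chr2:11642542-11642791 for Il2ra and chr7:125603179-125603428 for Il21r. For Il4ra these are 99 of the 250 bases before the RefSeq start, cut where an annotated exon begins. Capitals mark a match to a searched motif.
Il4ra: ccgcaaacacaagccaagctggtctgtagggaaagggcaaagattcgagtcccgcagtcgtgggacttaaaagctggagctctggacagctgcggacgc
Il2ra: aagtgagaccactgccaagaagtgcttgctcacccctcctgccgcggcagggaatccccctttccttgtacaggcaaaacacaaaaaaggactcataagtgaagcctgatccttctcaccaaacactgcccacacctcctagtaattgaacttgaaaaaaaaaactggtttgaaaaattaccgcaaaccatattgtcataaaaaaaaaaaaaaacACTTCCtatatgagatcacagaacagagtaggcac
Il21r: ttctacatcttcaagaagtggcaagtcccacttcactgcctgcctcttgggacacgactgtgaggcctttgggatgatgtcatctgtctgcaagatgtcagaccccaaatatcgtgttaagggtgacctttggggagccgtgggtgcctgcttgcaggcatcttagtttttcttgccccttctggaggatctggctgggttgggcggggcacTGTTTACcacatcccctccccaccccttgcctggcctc
The capitals in Il2ra are the reverse complement of GGAAGT, a core bound by ETS factors, and begin 35 bases before the start. Those in Il21r are the reverse complement of GTAAACA, a forkhead motif, and begin 38 bases before the start. The 4 motifs named here were searched on both strands in the 250 bases before the start of 27025 RefSeq promoters, with annotated exons included. In the windows of Il6ra and Il7r, 0 bases lay upstream of the first annotated exon base. RefSeq entries matched 8 of the 9 members. GGAAGT was in 19.99% of all promoters and in 3 of the 8 members (Il2ra, Il6ra and Il7r), and GTAAACA was in 3.09% of all promoters and in Il21r. The STAT motif TTCNNNGAA was in 7.18% of promoters and in Il7r, and the STAT6 spacing, with 1 more N, was in 5.86% of promoters and in 0 of the 8 members. A match is a description of these letters and not a bound site.

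Il4ra stood at 11.7, 4.73 and 19.2 RPKM in RT1, RT2 and RT3, against 22.3, 32.5, 32.2 and 34.2 RPKM in WT1 to WT4. Every RT library was below every WT library, which held for 1 of the 9 members and in this direction for 4.57% of the 9605 genes, while 0 members and 4.47% of genes had every RT library above. The means were 11.9 ± 7.22 RPKM in RT (SD, n = 3) and 30.3 ± 5.41 RPKM in WT (SD, n = 4), with a two-sided exact permutation p of 0.0571, unadjusted, which is the smallest the 35 splits allow. The limma log2 fold change was -1.44 ± 0.48 (SE, adjusted p = 0.409), and limma voom on reads gave -1.26 ± 0.22 (SE, adjusted p = 0.00735). It was -1.23 in the deep libraries (limma voom adjusted p = 0.0686) and -1.69 in the shallow ones (limma voom adjusted p = 0.0317). Leaving out any library but RT1 kept Il4ra past the threshold in the test on reads, with log2 fold changes from -1.67 to -1.06 over all 7 fits. Without RT1 it stood at -1.67 with a limma voom adjusted p of 0.688. The shallow values rest on 3 and 14 reads in RT2 and RT3 and on 23 and 25 reads in WT3 and WT4.

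B cells also carry Il4ra, and their markers moved with the genotype in the shallow set. The 8 B cell markers held 256, 72.4 and 71.5 RPM in RT1, RT2 and RT3, against 229, 179, 1226 and 1367 RPM in WT1 to WT4. Ms4a1, Blk, Cr2 and Fcer2a had 0 reads in RT2. In the test on reads 0 of the 8 markers were higher and 1 was lower. In the deep set the sum was not lower in RT1, while Il4ra was. In the shallow set both were lower in RT, and the part of B cell RNA in Il4ra there was not tested. Plasma cell, dendritic cell and erythroid markers were likewise highest in WT3 and WT4. Plasma cell markers summed to 323, 124 and 125 RPM in RT1, RT2 and RT3, against 39.9 and 37.0 RPM in WT1 and WT2 and 1330 and 1598 RPM in WT3 and WT4. Dendritic cell markers summed to 78.3, 0 and 44.7 RPM in RT1 to RT3, against 76.4, 49.8, 409 and 425 RPM in WT1 to WT4. On reads 2 of 3 tested dendritic cell markers fell and 0 rose. They were Siglech, with 0 reads in every RT library, and Flt3, at -2.88 over all libraries, -2.70 in the deep set and -3.64 in the shallow set, so Flt3 was lower beside Il4ra in the deep set as well, and its part was not tested. Erythroid markers summed to 236, 403 and 170 RPM in RT1 to RT3, against 108, 287, 1758 and 1728 RPM in WT1 to WT4. These sums separate WT3 and WT4 from the other 5 libraries. Monocyte and macrophage markers, cells that also carry Il4ra, went the other way in the deep set. They summed to 2191, 269 and 384 RPM in RT1 to RT3, against 726, 482, 1055 and 1016 RPM in WT1 to WT4. On reads 2 of 4 tested markers were higher, Adgre1 and Cd68, and 0 were lower. Without RT1 these 2 were at -3.30 and -4.12 on the log2 scale. The median log2 fold change of the 4 was 1.93 in the deep set and -2.68 in the shallow set, where Il4ra was also lower. The part of monocyte and macrophage RNA in Il4ra was not tested.

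Il2ra, which encodes CD25 and marks regulatory and recently activated T cells, stood at 2.53, 7.26 and 4.73 RPKM in RT1, RT2 and RT3, against 9.10, 9.81, 3.23 and 7.89 RPKM in WT1 to WT4. RT1 was below both deep WT libraries, on 287 reads against 880 and 1024. The shallow libraries held 4 and 3 reads in RT2 and RT3 and 2 and 5 in WT3 and WT4, where the groups overlap. The means were 4.84 ± 2.37 RPKM in RT (SD, n = 3) and 7.51 ± 2.96 RPKM in WT (SD, n = 4; two-sided exact permutation p = 0.343). On reads, Il2ra fell by 1.85 on the log2 scale (SE 0.22, limma voom adjusted p = 0.00156), and it fell by 1.79 with the trend over gene length removed (limma voom adjusted p = 0.00178). This call is that of the deep libraries, where the log2 fold change was -1.93 (95% interval -2.79 to -1.07, limma voom adjusted p = 0.0556). In the shallow libraries it was 0.093 (95% interval -1.42 to 1.60), an interval that includes both no change and a fall of more than 1 on the log2 scale. Without RT1 the value was 0.11 (limma voom adjusted p = 0.989).

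Regulatory T cells are the main carriers of Il2ra among resting CD4+ cells, and their summed markers were higher in RT. The summed level of 5 regulatory T cell markers was 1145, 2048 and 2591 RPM in RT1, RT2 and RT3, against 959, 560, 798 and 868 RPM in WT1 to WT4. On reads 1 of 4 tested markers rose, Ctla4, an inhibitory receptor, with a log2 fold change of 1.52 (limma voom adjusted p = 0.00595), and 0 fell. Foxp3, which defines these cells, was at 17.4, 64.0 and 179 RPKM in RT1, RT2 and RT3, against 19.4, 14.3, 31.6 and 26.8 RPKM in WT1 to WT4 (limma voom log2 fold change 0.33, adjusted p = 0.560). The ratio of Il2ra to Foxp3 was 0.145, 0.113 and 0.0264 in RT1, RT2 and RT3, against 0.468, 0.684, 0.102 and 0.295 in WT1 to WT4. In the deep set this ratio was lower in RT1 than in either WT library, and in the shallow set the groups overlap, on the few Il2ra reads given above. The part of regulatory T cells in the level of Il2ra was not tested.

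Il2rb (chromosome 15, 78479256 to 78495271, minus strand) encodes the signalling chain shared by the interleukin 2 and interleukin 15 receptors. Its RPKM values cannot be set across the library sets, because they rest on a gene length of 2785 bases in the deep libraries and 4287 bases in the shallow ones, so only comparisons within a set and on reads are read here. It stood at 87.2 RPKM in RT1, against 80.0 and 56.7 RPKM in WT1 and WT2. In the shallow set it stood at 174 and 219 RPKM in RT2 and RT3, against 104 and 107 RPKM in WT3 and WT4. RT was thus above WT within both sets, which held for 1 of 8 members and for 12.3% of 5908 genes. Il2rb rose in the shallow libraries alone, by 0.84 ± 0.26 (log2, SE, limma voom adjusted p = 0.0427), on 79 and 114 reads in RT2 and RT3 and 53 and 56 reads in WT3 and WT4. It stood at 0.34 in the deep set (limma voom adjusted p = 0.615) and at 0.49 ± 0.20 over all 7 libraries (SE, limma voom adjusted p = 0.137), where leaving out a library gave values from 0.25 without WT2 (limma voom adjusted p = 0.281) to 0.84 without RT1 (limma voom adjusted p = 0.702). It passed in 1 of these 7 fits, the 1 without WT1, at 0.72 (limma voom adjusted p = 0.00706). With the trend over gene length removed, the shallow value was 0.86 (limma voom adjusted p = 0.0546).

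Il2rb is also a gene of NK and memory CD8 cells. The 5 NK cell markers summed to 18.4, 197 and 89.4 RPM in RT1, RT2 and RT3, against 89.9, 70.8, 57.0 and 64.7 RPM in WT1 to WT4, with Klra8 at 0 in every library. CD8 T cell markers summed to 3.36, 0 and 8.94 RPM in RT1 to RT3, against 19.3, 25.0, 9.50 and 27.7 RPM in WT1 to WT4. In RT1 both sums were below those of WT1 and WT2, while Il2rb was above both. In RT2 and RT3 the NK sum was above that of WT3 and WT4, as was Il2rb, and its part was not tested. General CD4 T cell markers moved the same way in the shallow set, with a median log2 fold change of 0.92 over 6 genes and sums of 5709 and 5352 RPM in RT2 and RT3, against 3412 and 2928 RPM in WT3 and WT4. In the deep set their median was -0.10, with a sum of 2724 RPM in RT1, against 3072 and 3064 RPM in WT1 and WT2. Over all libraries 0 of the 6 rose and 1 fell, Cd5, and their part in the shallow values of Il2rb and Il7r was not tested.

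The ratio of Il2rb to Il2ra RPKM was 34.5, 24.0 and 46.2 in RT1, RT2 and RT3, against 8.79, 5.78, 32.2 and 13.6 in WT1 to WT4. In the deep set RT1 was above both WT libraries, and in the shallow set RT2 lay between WT3 and WT4. The shallow ratios rest on 4 and 3 Il2ra reads in RT2 and RT3 and on 2 and 5 in WT3 and WT4, too few to compare the groups.

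Il2rg, the gamma chain itself, is on chromosome X (101264378 to 101268255, minus strand). It stood at 47.0 RPKM in RT1, against 58.1 and 74.1 RPKM in WT1 and WT2, and at 408 and 282 RPKM in RT2 and RT3, against 278 and 255 RPKM in WT3 and WT4. On RPKM, RT was below WT in the deep set and above WT in the shallow set. As a share of recovered reads the shallow groups overlap, at 1065 and 733 RPM in RT2 and RT3, against 751 and 684 RPM in WT3 and WT4. The difference between libraries of the 2 sets was larger than that between genotypes. In wild type the shallow mean was 4.03 times the deep mean for Il2rg, against a median of 1.64 over 5831 genes. Il2rg is the shortest member, at 2387 bases, and over 5323 genes with 1 length this ratio fell with gene length (Spearman -0.46, a description across genes). On reads its log2 fold change was -0.25 (95% interval -0.69 to 0.20, limma voom adjusted p = 0.433), -0.51 in the deep set and 0.29 in the shallow set, where it was 0.075 with the trend over gene length removed. The interval over all libraries leaves room for a fall of about 0.69 and a rise of about 0.20 on the log2 scale.

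Il7r (chromosome 15, 9505788 to 9530176, minus strand), the interleukin 7 receptor chain that marks naive and memory T cells, is the other member with different lengths behind its values, 3208 bases in deep libraries and 4663 in shallow ones. It stood at 38.4 RPKM in RT1, against 61.7 and 63.0 RPKM in WT1 and WT2, so RT was below WT in the deep set. In the shallow set it stood at 85.2 and 108 RPKM in RT2 and RT3, against 54.1 and 60.0 RPKM in WT3 and WT4, so RT was above WT there, as were the CD4 T cell marker sums given beside Il2rb. The log2 fold change was -0.73 in the deep set (95% interval -1.21 to -0.24, limma voom adjusted p = 0.121) and 0.70 in the shallow set (95% interval 0.09 to 1.31, limma voom adjusted p = 0.189). The difference between the sets, shallow minus deep, was 1.42 ± 0.36 (SE) and did not pass in the test of that difference (limma voom adjusted p = 0.199). In that test 0 of 8 members passed in either direction, against 0% of 5908 genes higher and 0.322% lower in the shallow set, and 2 members, Il7r and Il2ra, had an unadjusted p under 0.05. Over all 7 libraries Il7r was at -0.40 (95% interval -0.95 to 0.15, limma voom adjusted p = 0.290).

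Naive T cell markers, which share cells with Il7r, were below WT in each set. A sum over 8 of them came to 1278, 1769 and 2082 RPM in RT1, RT2 and RT3, against 3213, 4508, 3830 and 3815 RPM in WT1 to WT4, and on reads 7 of 7 tested fell and 0 rose. Of these naive markers, Tcf7 did not pass without RT1, RT2, RT3, WT3 or WT4. Follicular helper markers held 2290, 2430 and 3485 RPM in RT1 to RT3, against 855, 434, 798 and 693 RPM in WT1 to WT4. On reads 7 of 8 rose and 0 fell, but Cd200 was at -0.16 on the log2 scale without RT1. Cxcr5 did not pass without RT1, RT2, RT3, WT3 or WT4, and Icos did not pass without RT1, RT3, WT3 or WT4. Il7r was thus below WT beside the naive markers in RT1 but above WT beside them in RT2 and RT3, and the part of either cell type was not tested. Of 6 transcription factors known to act on Il7r, 2 fell and 0 rose on reads. They were Foxo1, at 8.68, 6.55 and 11.4 RPKM in RT1, RT2 and RT3 against 22.1, 31.8, 28.1 and 18.0 RPKM in WT1 to WT4 (log2 fold change -1.62, limma voom adjusted p = 0.00189), and Foxp1, a forkhead antagonist, at 6.36, 2.06 and 2.39 RPKM in RT1, RT2 and RT3 against 10.7, 13.5, 8.56 and 14.4 RPKM in WT1 to WT4 (log2 fold change -1.01, limma voom adjusted p = 0.0103). Foxo1 had log2 fold changes of -1.64 in the deep set and -1.35 in the shallow set.

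Il21r showed no difference beyond its spread. It stood at 27.3, 79.6 and 98.9 RPKM in RT1, RT2 and RT3, against 32.6, 33.5, 91.0 and 76.7 RPKM in WT1 to WT4. RT1 was the lowest library of the deep set, and the shallow groups overlap. The log2 fold change on reads was -0.23 over all libraries (95% interval -0.55 to 0.09, limma voom adjusted p = 0.30). It was -0.31 in the deep set and 0.048 in the shallow set (95% interval -0.59 to 0.69). The shallow interval includes changes of more than 0.55 in either direction. Il15ra was near the limit of counting, at 2.71, 6.38 and 1.85 RPKM in RT1, RT2 and RT3, against 2.16, 2.0, 0 and 3.70 RPKM in WT1 to WT4. Its shallow values rest on 3 and 1 reads in RT2 and RT3 and 0 and 2 in WT3 and WT4, so a difference there was not detectable at this depth. In the deep set it held 263 reads in RT1, against 178 and 178 in WT1 and WT2. Its limma log2 fold change was 0.73 ± 0.64 (SE, adjusted p = 0.792).

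Neither chain of the interleukin 6 receptor passed a test between RT and WT, in all libraries or in either set. Il6ra (chromosome 3, 89864059 to 89913196, minus strand), which encodes the chain that binds the cytokine, stood at 21.3, 7.66 and 14.3 RPKM in RT1, RT2 and RT3, against 23.4, 29.6, 31.1 and 16.2 RPKM in WT1 to WT4. Every RT library was below every WT library of its own set, which held for 2 of 8 members, Il4ra and Il6ra, and for 12.6% of 5908 genes. Its log2 fold change on reads was -0.40 (95% interval -0.82 to 0.03, limma voom adjusted p = 0.183), with -0.33 in the deep set (limma voom adjusted p = 0.491) and -1.08 in the shallow set (limma voom adjusted p = 0.158). Il6st (chromosome 13, 112464070 to 112510086, plus strand), the gp130 chain, stood at 27.0 RPKM in RT1, between WT1 and WT2 at 27.8 and 25.0 RPKM. In the shallow set it stood at 10.2 and 14.1 RPKM in RT2 and RT3, against 16.7 and 30.4 RPKM in WT3 and WT4, on 12 to 41 reads per library. Its log2 fold change was 0.003 in the deep set (95% interval -0.55 to 0.56) and -0.92 in the shallow set (95% interval -1.71 to -0.14, limma voom adjusted p = 0.174). The difference between the sets did not pass for either chain (limma voom adjusted p = 0.850 for Il6ra and 0.760 for Il6st).

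Il6ra and Il6st are the longest members, at 8642 and 11099 bases, and in the shallow libraries the fold change moved with gene length across all genes. The median log2 fold change of RT over WT there was 0.27 for 752 genes under 2 kb, -0.22 for 1163 genes of 5 to 7 kb and -0.42 for 898 genes of 7.5 to 12 kb. The Spearman correlation across the 5908 genes, which are not independent replicates, was -0.27 in the shallow set and -0.04 in the deep set. With this trend removed, a step chosen after seeing the data, the shallow log2 fold change was -0.72 for Il6ra and -0.36 for Il6st, with limma voom adjusted p-values of 0.451 and 0.667. Il4ra, at 6002 bases, kept a shallow value of -1.49 (limma voom adjusted p = 0.111), no longer past the threshold there, and -1.19 over all libraries (limma voom adjusted p = 0.00816). What sets the length trend was not tested.

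**Figure D3:**
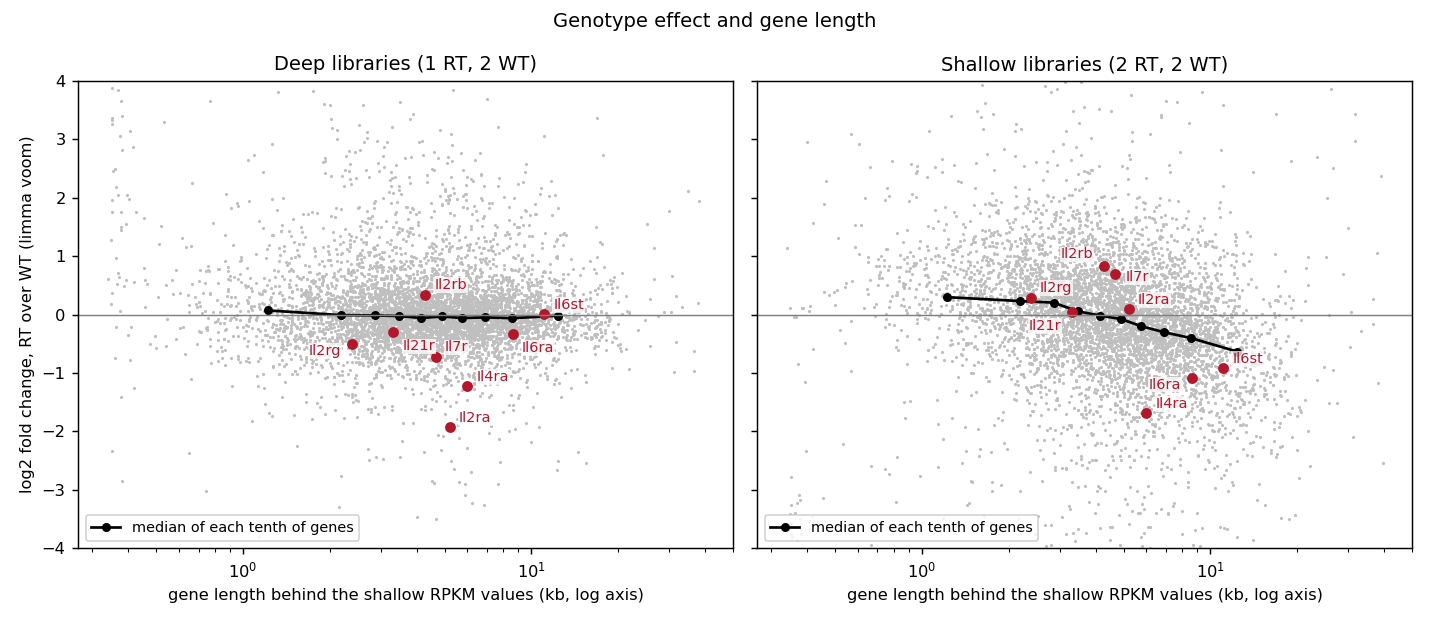
Both panels plot the log2 fold change of RT over WT (limma voom on reads) against gene length in kb on a log axis, for deep libraries on the left and shallow ones on the right. Grey points are genes, red points the 8 receptor genes tested, and the black line joins the medians of 10 length bins of equal gene number. The line is flat on the left and falls on the right. There Il6ra, at -1.08, and Il6st, at -0.92, lie below it, in bins with medians of -0.40 and -0.63. Values beyond 4 in size (51 genes on the left, 86 on the right) and 39 genes outside the drawn lengths are not shown.

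Genes around these receptors were counted in 9 lists of 62 distinct genes, all in the table, of which 39 could be tested on reads. Of these, 10 rose and 4 fell, with a median log2 fold change of -0.03, against 9.21% and 7.94% of all genes, and 0 of 46 passed in the limma test on RPKM. As for the receptors, the fit without RT1 called none of them. The 7 ligands listed with the gamma-chain family include Tslp, which does not use the gamma chain. Among the 7, Il21, made by follicular helper T cells, was the 1 gene tested and it rose. It stood at 27.7, 44.9 and 41.6 RPKM in RT1, RT2 and RT3, against 6.89, 1.96, 0 and 15.6 RPKM in WT1 to WT4 (log2 fold change 2.92 ± 0.52, SE, limma voom adjusted p = 0.00833). RNA of the ligand Il21 was thus higher in RT in both sets, while that of its receptor chain Il21r did not pass. Il2, Il9 and Tslp were listed at 0 in every library, and Il4 was above 0 in RT1 and WT1 alone, at 3.59 and 2.15 RPKM. Of 9 gp130 ligands, Clcf1 was tested and did not pass (log2 fold change -0.32, limma voom adjusted p = 0.435), and Il6 was above 0 in RT3 alone, at 3.39 RPKM.

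Of 8 other chains of the families, 3 were tested and 2 rose, Il9r, the interleukin 9 receptor, by 1.14 (limma voom adjusted p = 0.0240) and Crlf2, the receptor chain for TSLP, by 0.69 (limma voom adjusted p = 0.0451). Neither was higher in the shallow set, where Il9r was at -1.64 and Crlf2 at -0.09, so both calls are those of the deep set. Jak3, the kinase on the gamma chain, was the 1 of 4 JAK kinases that rose, by 0.78 (limma voom adjusted p = 0.0246), at 39.96, 70.7 and 75.3 RPKM in RT1, RT2 and RT3, against 23.6, 19.6, 70.7 and 36.9 RPKM in WT1 to WT4. Of 7 STAT factors, Stat4, which acts downstream of interleukin 12, rose by 1.04 (limma voom adjusted p = 0.00595), and Stat3, Stat5a, Stat5b and Stat6, which serve the receptors described here, stayed short of the threshold at 0.40, -0.03, -0.36 and -0.32 on the log2 scale. Of 6 feedback inhibitors tested, Socs1, which blocks JAK kinases, rose by 0.77 (limma voom adjusted p = 0.0242), and 0 fell. Jak3 and Socs1 did not pass without RT1, RT3 or WT4, with limma voom adjusted p-values of 0.0597 and 0.0589 without RT3 and of 0.0780 and 0.0530 without WT4. Crlf2 passed in 1 of the 7 fits that leave out a library, the 1 without WT1.

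Known STAT5 targets and STAT3 targets were listed apart. Of 7 STAT5 targets tested, 0 rose and 2 fell, Ccnd2, a cyclin of the G1 phase, by 0.88 (limma voom adjusted p = 0.00412) and Myc, a growth regulator, by 1.56 (limma voom adjusted p = 0.00522). Of 7 STAT3 targets tested, 4 rose and 0 fell. These were Bcl6, the regulator of follicular helper cells, by 1.99 (limma voom adjusted p = 0.000721), Batf by 1.94 (limma voom adjusted p = 0.00159), Maf by 1.39 (limma voom adjusted p = 0.00756) and Bcl3 by 1.04 (limma voom adjusted p = 0.00923). Bcl6, Batf and Maf are all transcription factors of follicular helper cells, and Bcl6 is also in that marker list. Cish and Pim1, STAT5 targets that are often read as a measure of interleukin 2 signalling, were at -0.72 and 0.47 on the log2 scale and did not pass (limma voom adjusted p = 0.107 and 0.0600).

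**Figure D4:**
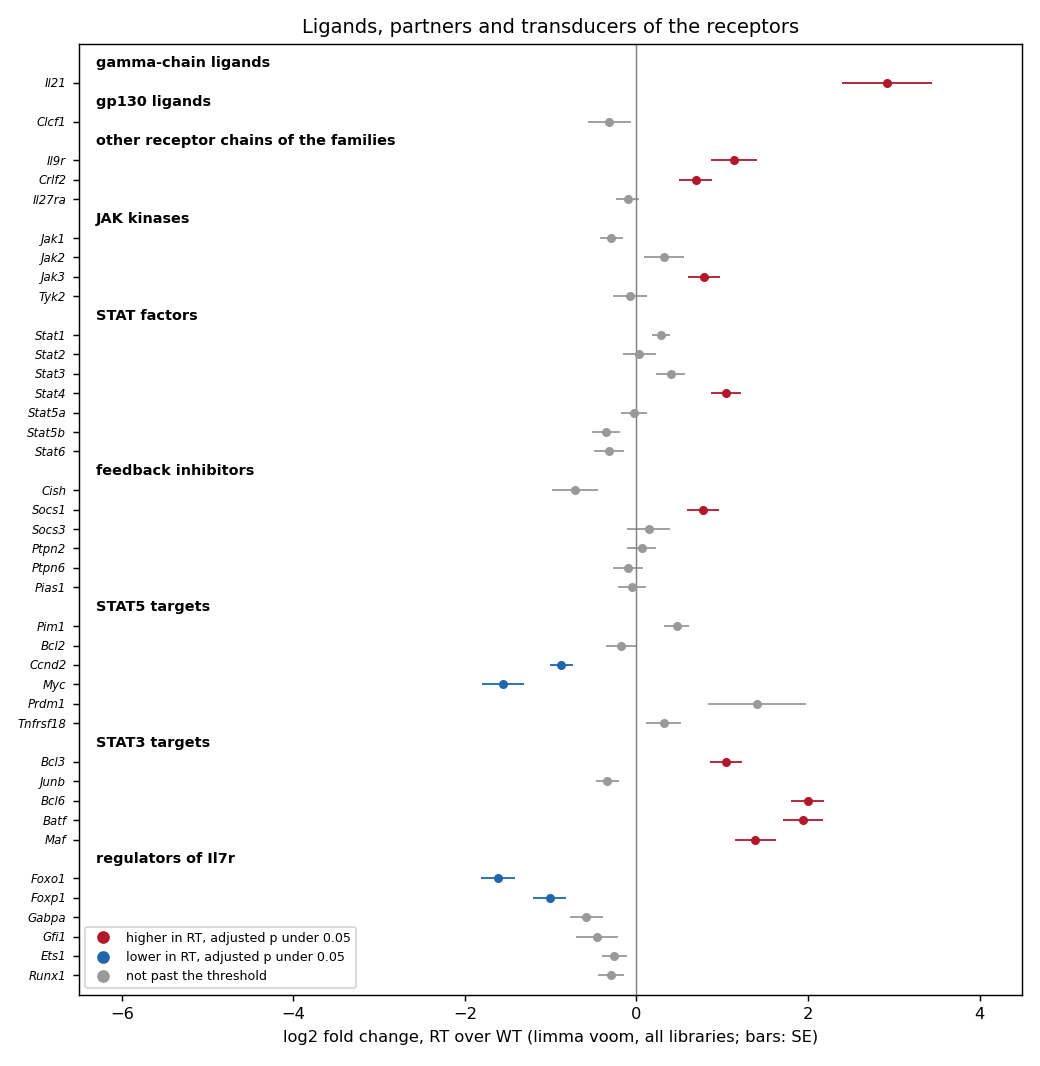
The x axis is the log2 fold change of RT over WT (limma voom on reads, all 7 libraries), with bars for the SE, and the rows are the 39 tested genes of the 9 lists. Red points rose in RT, blue points fell and grey points did not pass an adjusted p of 0.05. Il21, Bcl6 and Batf lie farthest to the right, at 2.92, 1.99 and 1.94, and Foxo1 and Myc farthest to the left, at -1.62 and -1.56.

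The genes whose pattern over the 7 libraries was most like each receptor were ranked by Pearson r of log2(RPKM + 1), after the mean of each library set was subtracted, among 3899 genes. These values describe 7 libraries that share their depth sets and genotypes. Over so few libraries the highest of 3899 genes can reach a high r by chance. Il4ra was closest to Mlec and Slc12a7 (r = 0.996 and 0.995), Il6ra to Orc3 and Med1 (0.994 and 0.993) and Il6st to Ssh1 and Myo9b (0.994 and 0.985). Il2rb was closest to Fkbp5 and Ptpn22 (0.990 and 0.986), and Il7r to Ints3 and Mat2b (0.980 and 0.971). Il2rg was closest to Rplp2 and Rps21 (0.994 and 0.989), both genes of ribosomal proteins, and Il21r to Fam13b and Hmga1 (0.962 and 0.956). Il2ra and Il15ra had too few shallow reads to be ranked. Among the receptors, Il4ra went with Il6ra (r = 0.847) and Il6st (0.707), and opposite to Il2rb (-0.664).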

How the data were processed

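RNA of CD4+ splenocytes, in 7 samples that the series counts as mice (3 RT, 4 WT), was made into libraries with a TruSeq v2 kit from 150 ng of total RNA, per the labels' protocols. The authors deposited RPKM values for 19589 genes, and the submitters' processing notes name mm10 as the genome build. For the aligner, the read counter and the gene models, "not given in the sources used here" applies. Nothing beyond the series' mention of mice says how samples were bred, collected or sequenced. The 9 receptors and all gene lists were chosen with earlier results of these data known, and so were the tests. All 9 receptors are named whatever their values, and for each with 20 or more shallow reads the 2 genes most like it.

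The main test was limma 3.58.1 in R 4.3.3 (lmFit, eBayes with trend) on log2(RPKM + 1) with genotype alone, over the 9605 genes at 1 RPKM or more in 3 libraries, with Benjamini-Hochberg adjustment and a threshold of 0.05. This scale understates the change of low genes. Whole reads were recovered from the steps of the RPKM values, as value times gene length times library total. With GENCODE M21 exon lengths, 78.9% to 83.9% of values under 100 reads came out whole (within 0.01 reads). With free lengths, 13048 of 13859 genes gave whole reads in every library with 1 length and 810, Il2rb and Il7r among them, needed a different length in deep and shallow libraries (within 0.003 reads). Recovered reads in genes made up 49.1% to 52.7% of a deep library's total and 88.5% to 92.0% of a shallow one's. In RT1, WT1 and WT2 the most common low count was 9, 12 and 14 reads rather than 1. The cause is not given, and reads there cannot be taken as independent molecules. Limma voom with genotype and library set was run on the 5908 genes with 10 or more shallow reads. Single levels were compared with two-sided exact permutation tests, and the scripts were tested on simulated data. Same-numbered RT and WT libraries had correlations of 0.43, -0.18 and 0.18 in their deviations from the genotype means. The library sets were left in these deviations, so whether the numbers pair the samples is not known.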

Additional observations from a re-analysis of the deposited data

Results flagged for a closer look

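Among the 4 wild-type libraries, Il4ra in WT1 stood apart from the rest on RPKM, with both library sets pooled. It was at 22.3 RPKM, against 32.2 to 34.2 RPKM in WT2, WT3 and WT4, and its gap to the nearest of them was 0.829 of the whole range, at the limit used for 4 samples. About 1 in 20 groups passes this limit by chance. As a share of recovered reads WT1 did not stand apart, at 273 RPM, against 370, 219 and 231 RPM in WT2, WT3 and WT4. Without WT1, Il4ra remained past the threshold in the limma voom test on reads.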

How the results depend on the processing

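Depth sets the limit here. The shallow libraries hold 0 to 5 reads of Il2ra and Il15ra each, and a fold change on them is not detectable. All deep information on RT comes from 1 mouse, RT1. Intervals cover the spread between libraries, and the reads of the deep libraries cannot be taken as independent molecules.

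The count of genes changed was 5 in the limma test on RPKM. It was 0 with a pseudocount of 0.1, 0 without a filter on low values and 0 with the replicate block, where the genes with an unadjusted p under 0.05 numbered 364 higher and 393 lower, 483 and 389, and 586 and 287. It was 19 with RPKM rescaled to 1 sum, 25 with quantile normalization, 26 with the library set term and 25 with that term over genes with 1 length. On reads with limma voom it was 1013, then 975 with TMM scaling (568 higher, 407 lower, against 544 and 469), 142 in deep libraries alone and 353 in shallow ones, 290 with the replicate block and 693 with WT3 and WT4 summed in case they share an origin. With the length trend removed, chosen after seeing the data, it was 1073, 183 in the shallow libraries and 0 in the deep ones (638 higher and 440 lower ones had an unadjusted p under 0.05). Leaving out each library in turn gave 0 to 15 on RPKM and 0 to 1406 on reads.

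The count of receptors changed was 0 in all RPKM fits and on deep reads alone. On reads it was 2 (Il2ra and Il4ra) in the main voom fit, with TMM, with WT3 and WT4 summed and with the length trend removed, 2 in the shallow libraries (Il2rb and Il4ra), 0 in the shallow libraries with the length trend removed, 1 with the replicate block (Il2ra) and 0 to 3 when a library was left out. Under that block Il4ra was at -1.09 (limma voom adjusted p = 0.0945). Whether the replicate numbers pair the samples is not known, and that block has no term for the library set. A call lost there is thus not read as a weaker effect.

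Il4ra, Il2rb, Il15ra and Il6ra kept their direction in every alternative. Il4ra ran from -1.86 to -0.95, Il2rb from 0.25 to 1.2, Il15ra from 0.27 to 1.51 (RPKM fits alone) and Il6ra from -1.14 to -0.29. Il2ra reversed to 0.093 in the shallow libraries and 0.22 there with the length trend removed, and ran from -1.90 to 0.11 when a library was left out. Il2rg, at 0.41 on RPKM, reversed to -0.012 with quantile normalization, to -0.25 on reads, -0.20 with TMM, -0.51 in the deep libraries, -0.22 with WT3 and WT4 summed, -0.31 with the length trend removed and -0.49 in the deep libraries so treated. It ran from -0.40 to 1.35 when a library was left out. Il7r, at 0.24 on RPKM, reversed under the same settings to -0.19, -0.40, -0.34, -0.73, -0.35, -0.36 and -0.69, to -0.16 with the replicate block on reads, and ran from -0.55 to 0.70 when a library was left out. Il21r, at 0.19 on RPKM, reversed under those settings to -0.17, -0.23, -0.19, -0.31, -0.22, -0.22 and -0.26, and to -0.063 with the replicate block on reads. It was also at -0.031 with RPKM rescaled, -0.056 with the library set term, -0.056 over genes with 1 length and -0.058 in the shallow libraries with the length trend removed, and ran from -0.28 to 0.74 when a library was left out. Il6st reversed to 0.0026 in the deep libraries and 0.043 there with the length trend removed. The cause of these reversals was not tested.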
